A study of Mus musculus with 12 samples.

Results

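The data set out here compare the middle turn of the cochlea between *Gjb2* 35delG homozygous and wild-type mice, gene by gene. A gene was taken up when its deposited FPKM was at least 1 in 2 or more of the 4 middle libraries, which held for 14478 of the 37432 genes in the table. In FPKM, the fragments of a gene are divided by the length of its transcript and by all mapped fragments of the library. The gene just inside this limit was *H2-Q7*, with a second-highest FPKM of 1.001, and the one just outside was *Mir125a*, with 0.999.

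The study sequenced RNA of 12 cochlear pieces from male mice at P14, with 2 libraries for each genotype in the apical, middle and basal turns. The 35delG homozygous males were grown from male embryonic stem cells by tetraploid complementation on an almost pure C57BL/6J background, were delivered by cesarean section and had ICR foster mothers, whereas the wild-type males were bought at that age. Effects of genotype and of origin therefore cannot be told apart here. The sample titles call the genotypes ho and wt, and the genotype field calls them KO and WT. How many mice, cochleae or stem cell lines stand behind each library is not given in the sources used here, so p-values measure only the spread between these libraries. With 2 against 2 libraries, an exact permutation of single genes cannot reach a p under 0.333. Sequencing depth is unknown, since the FPKM have no steps of whole reads, and a 0 means listed at 0.

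Connexins are proteins whose hexamers in the membranes of neighbouring cells dock into gap junction channels, through which ions and small messengers pass. In the cochlea, *Gjb2* and *Gjb6* encode connexin 26 and connexin 30, which couple the supporting cells around the hair cells and the fibrocytes of the lateral wall. The middle turn also holds the neurons and Schwann cells of the spiral ganglion, the stria vascularis that sets the potential of the endolymph, and bone around all of these.

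The mutation lies in the coding part of exon 2 of *Gjb2* (ENSMUSG00000046352.7), which is read from the minus strand of chromosome 14 (GRCm38). The guide RNA of the study, its protospacer adjacent motif in capitals, matches the plus strand at chr14:57100701-57100723, which is coding positions 49 to 27 of the gene. The reference and the study's repair primer are shown on the coding strand over chr14:57100701-57100732, with the run of G that the mutation shortens in capitals.
guide and motif: agtgtttgttgacacccccgAGG
reference: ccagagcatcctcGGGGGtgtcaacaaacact
35delG primer: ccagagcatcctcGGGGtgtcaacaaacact
The reference has a run of 5 G at coding positions 31 to 35, counted from the A of the start codon, and the primer a run of 4. The FPKM of a gene do not show which allele its fragments carry, so the level of *Gjb2* is no check of the genotype labels.

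*Gjb2* had scaled FPKM of 139 and 267 in the wild-type pair and 255 and 449 in the homozygous pair. The groups overlapped, and limma, which estimates the spread from all 12 libraries, did not call the gene (log2 fold change 0.81, standard error 0.47, adjusted p = 0.307). *Gjb6* stood at 124 and 176 in the wild-type pair and 284 and 446 in the homozygous pair, with both homozygous libraries above both wild-type ones (log2 fold change 1.27, standard error 0.28, adjusted p = 0.0402). With single middle libraries left out, the log2 fold change of *Gjb6* lay between 0.94 and 1.59. Changes are given on the scale of log2(scaled FPKM + 1), which understates those of low genes, and as homozygous minus wild-type.

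Before genotypes are compared, 2 of the 4 middle libraries have to be described, since each carries genes that its repeat nearly lacks. The first wild-type library held transcripts of the glia of the central nervous system. *Mobp*, a protein of oligodendrocyte myelin, was at 638 and 3.63 in the wild-type pair and 0.776 and 1.05 in the homozygous pair. *Gfap*, the intermediate filament of astrocytes, was at 365 and 0.814 against 1.80 and 1.37, and *Mog*, on the surface of oligodendrocyte myelin, at 211 and 1.95 against 0.0555 and 0.134. Of the 12 genes listed as oligodendrocyte and astrocyte markers, 7 reached the FPKM limit, and the summed level of the list was 1592 and 50.5 in the wild-type pair and 18.3 and 19.8 in the homozygous pair. *Mobp* was the most abundant of them. The same sum was between 19.9 and 33.8 in the 4 apical libraries and the first wild-type basal library, 522 in the second wild-type basal library, and 555 and 869.6 in the homozygous basal ones. The 5 list members that did not pass were *Opalin*, *Olig1*, *Olig2*, *Hapln2* and *Ermn*. Their scaled FPKM was above 1 in the first wild-type library alone.

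The first homozygous library held transcripts of bone marrow and of dividing cells. *S100a8*, a calcium-binding protein of neutrophils, had 12.3 and 81.3 in the wild-type pair against 2109 and 120.3 in the homozygous pair. *Ngp*, a granule protein of neutrophil precursors, was at 7.24 and 30.4 against 687 and 41.4. All 11 neutrophil and myeloid precursor genes passed the limit, and their summed level was 48.1 and 268 in the wild-type pair and 6704 and 369.7 in the homozygous pair, with *S100a9* the most abundant. In the 8 libraries of the other turns this sum ran from 38.0 to 2107. The osteoclast enzyme *Acp5*, tartrate-resistant acid phosphatase, was at 0.512 and 0.570 against 151 and 1.91, and *Ctsk*, the collagen-cleaving protease of these cells, at 17.6 and 18.8 against 172 and 20.8. *Mki67*, a marker of dividing cells, was at 0.234 and 0.761 against 25.02 and 1.30, and *Top2a*, which untangles replicated DNA, at 0.536 and 0.859 against 29.4 and 1.92. *Igkc*, the light chain of antibodies, had 2.23 and 2.03 against 77.2 and 7.94. None of these genes was called between the genotypes. The wild-type pair and the second homozygous library had far lower levels of each, and their part in the result was not tested.

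**Figure D1:**
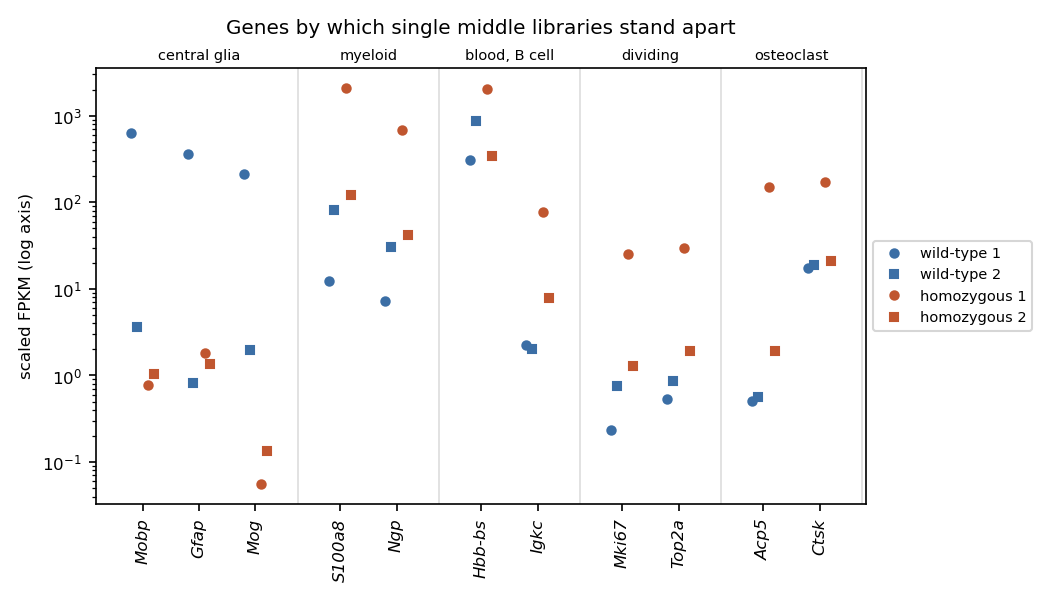
Scaled FPKM on a log axis of 11 genes in the 4 middle libraries, blue for wild-type and orange for homozygous, circles for repeat 1 and squares for repeat 2. The first wild-type library alone is high for *Mobp*, *Gfap* and *Mog*, and the first homozygous library alone is highest for the other 8 genes.

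The libraries also differed in their likeness to other turns. Across the 14478 genes, which are not independent replicates, the wild-type middle libraries had a Pearson correlation of 0.955 with each other and the homozygous ones of 0.937. The second homozygous middle library was closer to the homozygous apical libraries, at 0.975 and 0.969, and to the first wild-type basal library, at 0.938, than to its own repeat. The first had 0.950 with the second homozygous apical and 0.944 with the second wild-type basal library. The first wild-type middle library had 0.925 and 0.920 with the homozygous basal libraries, but 0.866 and 0.855 with the homozygous middle ones. The root mean square of the log2 difference between repeats was 0.49 for the wild-type pair and 0.57 for the homozygous pair. Transcripts of the mitochondrial genome took 13.8% and 20.6% of the FPKM sum for wild-type, against 10.7% and 7.64% for homozygotes. Whether each piece holds the turn its label names was not tested, and every value for the middle turn rests on these labels. How far the make-up of the pieces accounts for the differences that follow was not tested, and in pieces of whole tissue fewer cells of a type and less RNA per cell cannot be told apart.

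In the middle turn of homozygotes, the genes that rose included copies of other genes, a secreted serpin, neuropeptide Y and prestin, and the genes that fell included a thyroid hormone receptor, a Y-linked gene and *Gpr155*. Calls needed an adjusted p under 0.01 and a log2 fold change beyond 1 in size on the scale of log2(scaled FPKM + 1), the fold of 2 meant throughout. limma called 13 genes higher in homozygotes, 0.0898% of those tested, and 16 lower, 0.111%. With the limit on adjusted p raised to 0.05, the looser rule used further on, 191 genes were higher (1.32%) and 362 lower (2.5%). The homozygous pair was wholly above the wild-type pair for 4586 genes (31.7%) and wholly below it for 4225 (29.2%). Every count of list members without overlap further on is to be read beside these shares. The median log2 fold change of all genes was 0.03, and 7627 were above 0. This median depends on the scaling, with 0.17 for the FPKM as deposited, 0.13 after rescaling to equal sums and 0.03 after quantile normalization. All 29 called genes had no overlap between the genotypes. The limit on FPKM can itself set a direction. Both wild-type libraries were under 1 FPKM for 554 of the tested genes, 9 of the 13 called higher among them, and these genes passed only through the homozygous pair. For 262 genes, 4 of the 16 called lower among them, it was the reverse.

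**Figure D2:**
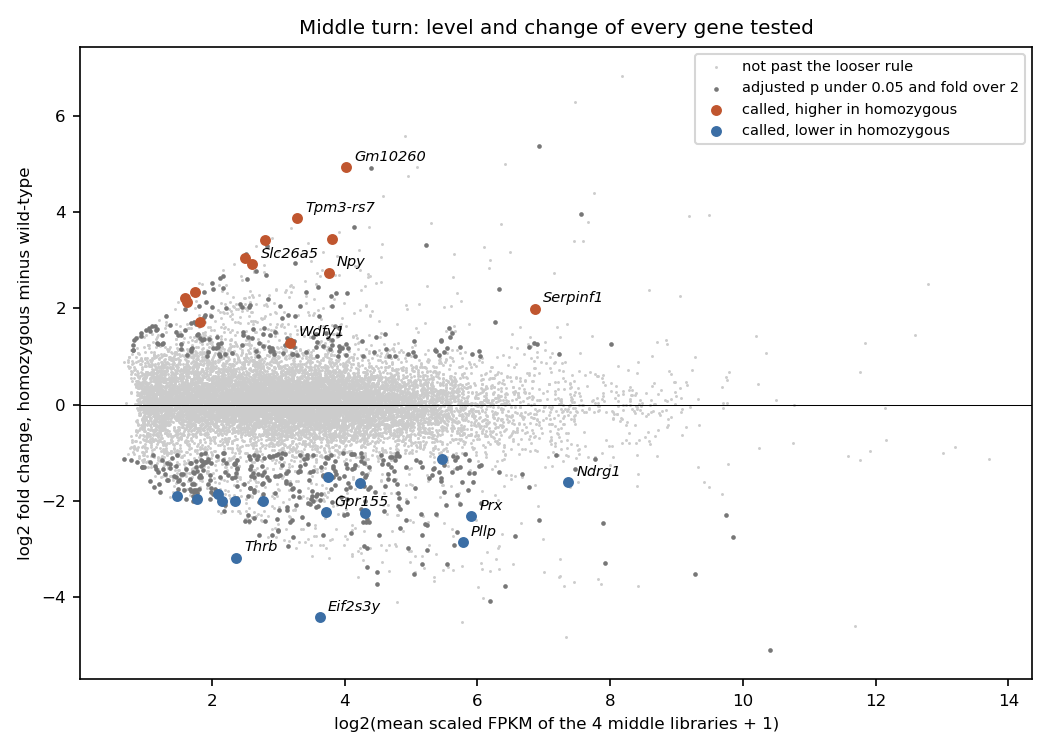
Log2 fold change of homozygous minus wild-type against the mean level in the 4 middle libraries for the 14478 genes tested. Orange points are the 13 genes called higher, blue points the 16 called lower, dark grey those past an adjusted p of 0.05 and a fold of 2, and light grey all others, some of which have large changes with wide spread between repeats.

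These calls rest on few libraries. With only the 4 middle libraries in the fit, limma called 0 genes, while 3810 had an unadjusted p under 0.05 and 30 passed the looser rule. With all 12 libraries, leaving out the first wild-type middle library left 6 calls, of which 6 are among the 29, and leaving out the second left 7, with 5 among them. Without the first homozygous middle library 5 calls were left, all 5 among the 29, and without the second 25, with 11 among them. *Tpm3-rs7*, *Atp6v0c-ps2*, *Eno1b*, *Gm10260* and *Thrb* are the 5 genes that were called with any 1 of the 12 libraries left out, and the other 24 lost the call at least once. Under the looser rule, 191 genes were higher and 362 lower with all 12 libraries, but 23 higher and 7 lower with only the 4 middle ones. Leaving out any single middle library made the total smaller. More genes were then lower than higher, except without the second homozygous middle library, where more were higher.

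Of the 13 genes that rose, 8 are nearly identical in sequence to another gene that is tested and codes for protein. *Tpm3-rs7*, a retrogene of tropomyosin 3, rose from 0.197 and 0.244 to 19.5 and 14.8 (log2 fold change 3.89, standard error 0.18, adjusted p = 8.18e-05). *Gm10260*, a copy of the ribosomal protein gene *Rps18*, was listed at 0 in both wild-type libraries and stood at 37.5 and 23.7 in the homozygous ones (adjusted p = 0.00023), so that no fold is given. *Eno1b*, a copy of the glycolytic enolase gene *Eno1*, rose from 0.161 and 0.212 to 11.0 and 12.3 (3.42, adjusted p = 0.00023). *Gm4735*, a processed pseudogene 99.8% identical to *Eno1b*, went from 0.260 and 0.173 to 8.41 and 9.72 (3.05, adjusted p = 0.000962). Whether its rise is separate from that of *Eno1b* was not tested. *Atp6v0c-ps2*, a processed pseudogene of a proton pump subunit, went from 1.48 and 1.27 to 25.6 and 23.9 (3.44, adjusted p = 0.00023). In these 5 genes the repeats of a genotype lay close together on the scale of the change. *Gm14038*, a pseudogene of *Zfand1*, rose from 0.0539 and 0.0691 to 3.65 and 4.29 (2.22, adjusted p = 0.00187). *Gm9825*, a pseudogene of the splicing factor gene *Rnps1*, rose from 0.215 and 0.0432 to 5.05 and 3.06 (2.14, adjusted p = 0.00715), and *Hmga1b*, a copy of the chromatin gene *Hmga1*, from 0.0568 and 0.0894 to 6.27 and 3.05 (2.34, adjusted p = 0.00816). 

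The aligned transcripts were 99.1% identical between *Tpm3-rs7* and *Tpm3*, 99.1% between *Gm10260* and *Rps18*, 99.5% between *Eno1b* and *Eno1*, and 99.8% between *Atp6v0c-ps2* and *Atp6v0c*. Reads of such pairs can be hard to place, and the levels of the 8 copies are uncertain for this reason. The genes they resemble were tested as well. *Tpm3* stood at 46.9 and 41.2 against 51.9 and 40.9, with a log2 fold change of 0.06 (adjusted p = 0.843). *Rps18* stood at 315 and 305 against 351 and 183 (−0.29, adjusted p = 0.694), and *Eno1* at 199 and 191 against 148 and 162 (−0.33, adjusted p = 0.526). *Atp6v0c* stood at 105 and 113 against 76.1 and 68.6 (−0.58, adjusted p = 0.131). *Zfand1*, *Rnps1* and *Hmga1* had log2 fold changes of −0.63, −0.24 and 0.13. None of these 7 was called. Of the 13 genes that rose, 9 had any match of at least 90% identity over at least 50% of the transcript. The one outside the 8 is *Gbp4*, whose match is to no tested coding gene. Of the 16 genes that fell, 0 had a match. Among all tested genes with a transcript to search, 831 of 14470 (5.74%) had one, and 70 of the 554 (12.6%) that passed the limit only through the homozygous pair. Of the 9 matched genes that rose, 8 passed in this way, all but *Atp6v0c-ps2*. Among all genes tested, 286 are annotated as pseudogenes, and 4 of these were called, all higher. In the other turns the 8 copies were also higher in homozygotes. Their log2 fold changes were 1.90 to 4.54 in the apical and 2.23 to 4.22 in the basal turn.

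Copy and parent differ at few bases, and an example from each of *Tpm3-rs7* and *Gm10260* is given here. The stretches are 60 bases of the transcripts, with the differing bases in capitals, and positions count from 1 at the A of the start codon of the first gene of each pair. *Tpm3* lies on the plus strand at chr3:90072649-90100902 and *Tpm3-rs7* on the plus strand at chr14:113314608-113316754 of GRCm38. *Rps18* lies on the minus strand at chr17:33951999-33955677 and *Gm10260* on the minus strand at chr13:97760072-97760632.
Tpm3, coding 68 to 127: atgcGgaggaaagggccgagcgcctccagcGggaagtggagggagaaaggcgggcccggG
Tpm3-rs7, same stretch: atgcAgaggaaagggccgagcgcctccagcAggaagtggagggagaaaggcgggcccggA
Rps18, coding 312 to 371: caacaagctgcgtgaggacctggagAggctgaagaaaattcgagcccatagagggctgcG
Gm10260, same stretch: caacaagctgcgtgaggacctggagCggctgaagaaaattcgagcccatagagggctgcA
The differences are G72A, G98A and G127A in the first pair, which has 13 in 2102 aligned bases, and A337C and G371A in the other, which has 5 in 545.

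The other genes that rose have no such coding partner. *Serpinf1*, which encodes the secreted pigment epithelium-derived factor, had 36.5 and 56.5 in the wild-type pair and 187 and 181 in the homozygous pair, a 3.96-fold rise (log2 fold change 1.996, standard error 0.22, adjusted p = 0.00715). *Npy*, the peptide neuropeptide Y, had 2.36 and 2.42 against 16.1 and 29.3 (log2 fold change 2.75, standard error 0.30, adjusted p = 0.00715). *Slc26a5*, prestin, the motor protein of outer hair cells, had 0.0255 and 0.873 against 7.76 and 11.7 (log2 fold change 2.93, standard error 0.34, adjusted p = 0.00816). Its wild-type repeats lay far apart, and both were under 1 FPKM, so the limit sets its direction. *Wdfy1*, a protein of endosomes, had 4.44 and 4.10 against 11.2 and 12.6 (1.29, adjusted p = 0.00526), and *Gbp4*, an interferon-inducible GTPase, 0.549 and 0.747 against 3.82 and 5.05 (1.72, adjusted p = 0.00816). Each of these 5 calls was lost when any 1 of the 4 middle libraries was left out, while the log2 fold changes stayed between 1.69 and 2.30 for *Serpinf1*, 2.33 and 3.16 for *Npy*, and 2.49 and 3.36 for *Slc26a5*.

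Among the genes that fell, *Thrb* and *Eif2s3y* were nearly silent in homozygotes. Both passed the limit only through the wild-type pair, as did *Crabp1* and *Ctnna3*, so for these 4 the limit sets the direction. *Thrb*, on the plus strand at chr14:17660896-18038090, encodes thyroid hormone receptor beta, which the cochlea needs to mature. Its level was 8.84 and 7.74 in the wild-type pair and 0.0362 and 0.00830 in the homozygous pair (log2 fold change −3.18, standard error 0.16, adjusted p = 9.59e-05). The log2 fold change was −3.66 in the apical and −3.17 in the basal turn. *Eif2s3y*, on the Y chromosome, encodes a subunit of the translation initiation factor eIF2. It was at 13.1 and 32.0 in wild-type libraries, listed at 0 in the first homozygous library and at 0.0318 in the second (adjusted p = 0.00267). Of the other Y-linked genes, *Ddx3y*, an RNA helicase, had 22.2 and 26.1 against 19.4 and 19.6 (−0.29, adjusted p = 0.237), and *Uty*, a histone demethylase relative, 6.14 and 7.62 against 5.62 and 4.97 (−0.32, adjusted p = 0.226). *Kdm5d*, a histone demethylase, had 3.68 and 4.04 against 1.503 and 1.74 (−0.89, adjusted p = 0.0348), which is past 0.05 but short of the log2 fold change of 1 on the scale used. The list of Y-linked genes and *Xist* had 4 of 5 members over the FPKM limit, *Xist* not among them, and a median of −0.61, or −0.32 without *Eif2s3y*. Of all 7 tested genes of the Y chromosome, the list included, 1 was called, 1 was higher and 2 were lower under the looser rule, and the median was −0.32. The call of *Eif2s3y* was lost without either homozygous middle library or the second wild-type one.

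The thyroid hormone list of receptors, transporters and response genes had 14 of 15 members over the limit, *Dio3* not among them. *Thrb* was the 1 called member. *Slc16a10*, a thyroid hormone transporter, had 2.10 and 1.88 against 5.86 and 4.54 and passed the looser rule (1.05, adjusted p = 0.0302). *Thra*, the other receptor gene, had 53.9 and 35.7 against 39.4 and 52.6 (0.05, adjusted p = 0.898), and the genotypes overlapped. The list's median was −0.03 and turned to 0.13 with the FPKM as deposited and 0.08 with equal sums. With single middle libraries left out it lay between −0.11 and 0.08, and without *Thrb* it was 0.05, so it has no settled direction.

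**Figure D3:**
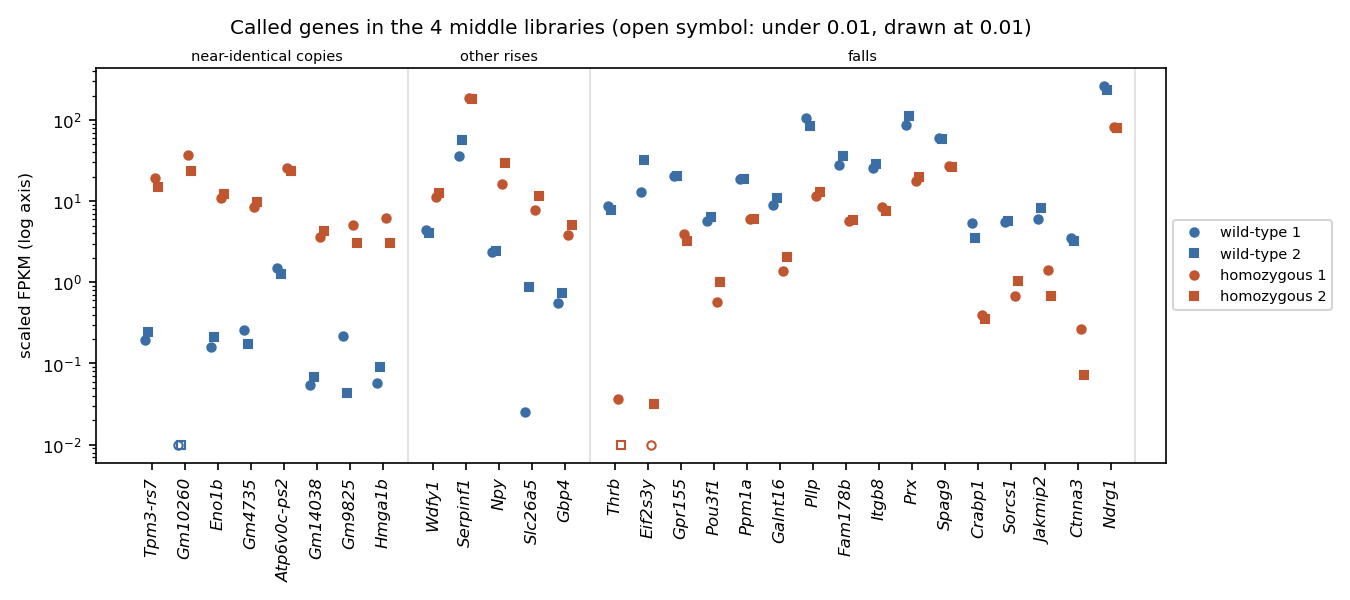
Scaled FPKM on a log axis of the 29 called genes in the 4 middle libraries, blue for wild-type and orange for homozygous, circles for repeat 1 and squares for repeat 2. Open symbols are values under 0.01, drawn at 0.01, and belong to *Gm10260* in wild-type and to *Thrb* and *Eif2s3y* in homozygous libraries.

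Of the genes that fell, *Pllp* and *Prx* belong to the list of Schwann cell and peripheral myelin genes, and *Pou3f1* and *Ndrg1*, outside it, are described beside them. *Pllp*, plasmolipin, a membrane protein of myelin, had 107 and 84.1 in the wild-type pair and 11.5 and 13.0 in the homozygous pair, a 7.77-fold lower level (log2 fold change −2.85, standard error 0.27, adjusted p = 0.00302). *Prx*, periaxin, which Schwann cells need to keep their myelin stable, had 87.4 and 111 against 17.8 and 20.1 (log2 fold change −2.32, standard error 0.26, adjusted p = 0.00752). *Pou3f1*, a transcription factor of Schwann cells about to make myelin, had 5.76 and 6.44 against 0.578 and 0.999 (−1.998, adjusted p = 0.00184). *Ndrg1*, a cytoplasmic protein whose loss causes a demyelinating neuropathy, had 264 and 232 against 82.5 and 79.0 (−1.60, adjusted p = 0.00898). In these 4 genes the repeats were close, with the lower wild-type library well above the higher homozygous one. Without single middle libraries their log2 fold changes ranged from −3.02 to −2.68 for *Pllp* and from −2.49 to −2.15 for *Prx*, but the calls of *Pllp*, *Prx* and *Ndrg1* were lost each time.

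The Schwann cell and peripheral myelin list had 22 of 22 members over the limit, with 2 called lower, 15 past the looser rule, all of these lower, and 21 lower without overlap. Its median log2 fold change was −2.43, beside 0.03 for all genes. *Pmp22*, a protein of compact myelin, had 1146 and 2095 against 266 and 199 (−2.75, adjusted p = 0.0197). *Cldn19*, a claudin of Schwann cell tight junctions, had 20.98 and 39.98 against 5.27 and 6.06 (−2.17, adjusted p = 0.0153). In these genes no homozygous library came near a wild-type one. *Mbp*, which both central and peripheral myelin contain, had wild-type repeats far apart, the one with glial transcripts being the higher. *Mbp* had 11790 and 1153 against 159 and 142 (−4.61, adjusted p = 0.0578). The 1 member that was higher without overlap was *S100b*, with 708 and 555 against 1432 and 2019 (1.44, adjusted p = 0.162). Without the first wild-type library, the one with glial transcripts, the median of the list was −2.44, and that of the oligodendrocyte and astrocyte list −1.28 in place of −3.32. Without *Mog*, which passed the limit only through the wild-type pair, the latter was −2.70. The summed level of the Schwann list was 22090 and 7181 in the wild-type pair and 2423 and 3031 in the homozygous pair.

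*Egr2*, the transcription factor that switches on myelin genes, had 7.64 and 11.9 against 4.11 and 5.10 (−0.92, adjusted p = 0.044), and the log2 fold change falls short of 1 on the scale with the added 1. Of the 22 members of the Schwann list, 21 were lower without overlap, and *S100b* was higher. Their promoters from RefSeq, that of *S100b* included, were searched on both strands for GCGTGGG and ACAAAG. The former are letters bound by factors of the EGR family, the latter letters bound by SOX factors. Of the 22 genes, 14 had a promoter in the table of GRCm38.p6. The EGR letters were in 2 of the 14 and in 5.04% of all 32851 promoters, and the SOX letters in 2 of the 14 and in 18.7% of all. The promoters below are those of *Prx*, with 1 EGR match, *Cnp*, with 1 match of each, and the called gene *Pllp*, with neither, and the matches are in capitals. They lie on the plus strand at chr7:27499074-27499373, the plus strand at chr11:100574689-100574988 and the minus strand at chr8:94696193-94696492, and a match is a description of letters only.
Prx: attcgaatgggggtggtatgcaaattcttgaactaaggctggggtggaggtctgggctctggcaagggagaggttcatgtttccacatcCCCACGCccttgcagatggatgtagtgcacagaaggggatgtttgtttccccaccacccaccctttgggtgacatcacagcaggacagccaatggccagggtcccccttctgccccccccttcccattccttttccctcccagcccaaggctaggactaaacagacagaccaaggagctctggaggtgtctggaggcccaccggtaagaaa
Cnp: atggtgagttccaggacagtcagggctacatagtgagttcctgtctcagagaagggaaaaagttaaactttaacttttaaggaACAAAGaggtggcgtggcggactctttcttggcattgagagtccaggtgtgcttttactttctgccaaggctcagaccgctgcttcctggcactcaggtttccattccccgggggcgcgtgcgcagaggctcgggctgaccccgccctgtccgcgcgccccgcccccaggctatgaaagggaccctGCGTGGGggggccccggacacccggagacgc
Pllp: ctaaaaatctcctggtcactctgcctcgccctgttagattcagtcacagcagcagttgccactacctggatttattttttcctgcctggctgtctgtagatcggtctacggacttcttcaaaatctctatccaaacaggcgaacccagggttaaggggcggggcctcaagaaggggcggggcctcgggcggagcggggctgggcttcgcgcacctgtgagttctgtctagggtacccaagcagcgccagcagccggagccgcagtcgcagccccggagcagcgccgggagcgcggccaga
*Cnp*, an enzyme of myelin-forming cells, had 608 and 273 against 50.04 and 33.1 (−3.29, adjusted p = 0.0175).

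The remaining genes that fell belong to several functions. *Gpr155*, a cholesterol sensor of lysosomes, had 20.6 and 20.7 against 3.94 and 3.27 (log2 fold change −2.24, standard error 0.17, adjusted p = 0.000962). *Ppm1a*, a protein phosphatase, had 18.98 and 18.9 against 6.07 and 6.02 (log2 fold change −1.502, standard error 0.13, adjusted p = 0.00197), and *Spag9*, a scaffold that links cargo to motor proteins, 60.1 and 58.8 against 26.8 and 26.7 (−1.12, adjusted p = 0.00816). The repeats of *Ppm1a* and *Spag9* differed by little beside the change. *Itgb8*, an integrin subunit that activates transforming growth factor beta, had 25.9 and 28.9 against 8.57 and 7.67 (−1.64, adjusted p = 0.00526). *Galnt16*, which adds sugars to proteins, had 8.86 and 11.1 against 1.40 and 2.06 (−2.01, adjusted p = 0.00265). *Crabp1*, which binds retinoic acid in the cytoplasm, had 5.39 and 3.56 against 0.395 and 0.357 (−1.97, adjusted p = 0.00816). In each of these genes both wild-type libraries lay far above the homozygous ones. *Sorcs1*, a sorting receptor of neurons, had 5.55 and 5.76 against 0.680 and 1.03 (−1.85, adjusted p = 0.00816), and *Ctnna3*, a catenin of cell junctions, 3.48 and 3.25 against 0.264 and 0.0713 (−1.91, adjusted p = 0.00867). *Jakmip2* had 6.01 and 8.27 against 1.41 and 0.678 (−2.002, adjusted p = 0.00816), and *Fam178b* 27.8 and 35.8 against 5.75 and 5.94 (−2.25, adjusted p = 0.00302).

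*Calb2*, a calcium-binding protein of spiral ganglion neurons, had 882 and 1354 in the wild-type pair and 209 and 41.6 in the homozygous pair (log2 fold change −3.53, standard error 0.83, adjusted p = 0.0475). *Nefh*, the heavy neurofilament, had 309 and 310 against 69.0 and 7.30 (−3.69, adjusted p = 0.21), and *Stmn3*, a regulator of microtubules, 336 and 502 against 76.1 and 11.6 (−3.72, adjusted p = 0.189). Of 25 spiral ganglion neuron genes, all over the limit, 0 were called, 1 passed the looser rule and 22 were lower without overlap. The median was −2.29, and −2.81 without the first homozygous library and −1.53 without the second. Of the 25, 1 passed only through the wild-type pair, and without it 21 of 24 were lower without overlap, with a median of −2.49. The summed level was 2807 and 3577 in the wild-type pair and 713 and 159 in the homozygous pair. In the basal turn it was 114 and 1307 for wild-type, against 4329 and 4827 for homozygotes.

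The synaptic vesicle and SNARE list had 25 of 25 members over the limit and a median of −1.89, with 21 lower and 3 higher without overlap. Of the lower ones, 3 passed only through the wild-type pair, so the limit sets their direction, and without them 18 were lower and the median was −2.30. *Vamp1*, a SNARE of synaptic vesicles, had 172 and 229.9 against 57.2 and 23.8 (−2.39, adjusted p = 0.0481). *Snap25*, the most abundant of the list, had 352 and 443 against 92.9 and 9.95 (−3.62, adjusted p = 0.181). Of the list 4 passed the looser rule, all lower, and 0 were called. The axonal channel list had 15 of 18 members over the limit, without *Scn3a*, *Scn9a* and *Cacna1b*, and a median of −2.33. Here too 4 passed the looser rule, all lower, and 14 were lower without overlap. For 2 of the 14, 1 of them past the looser rule, the limit sets the direction, since they passed only through the wild-type pair. Without these 2, 12 of 13 were lower and the median was −2.43. *Kcna1* and *Kcna2*, potassium channels beside the nodes of Ranvier, had 34.3 and 61.2 against 8.18 and 5.90 (−2.56, adjusted p = 0.0244) and 27.9 and 37.0 against 6.88 and 3.77 (−2.43, adjusted p = 0.0357).

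Among the 10 largest falls past the looser rule in genes of at least 5 scaled FPKM were genes outside all lists. *Spock3*, a proteoglycan, had 132 and 178 against 24.8 and 3.91 (−3.78, adjusted p = 0.0443). *Rab6b*, a Golgi GTPase of neurons, had 65.5 and 50.8 against 10.1 and 1.37 (−3.52, adjusted p = 0.0322), and *Serpini1*, neuroserpin, 23.1 and 48.0 against 4.92 and 0.840 (−3.38, adjusted p = 0.0353). *Lhfpl3* had 33.6 and 45.8 against 5.53 and 0.392 and *Syt11*, a synaptotagmin, 107 and 59.2 against 12.5 and 3.90 (adjusted p = 0.0486 and 0.0485). In each of these 5 the second homozygous library was the lowest.

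Of 18 connexin and pannexin genes 10 passed the limit, and *Gjb5*, *Gja3*, *Gja5*, *Gja6* and *Gjd3* were among those that did not. None was called, and under the looser rule 1 was higher, which is *Gjb6* itself, and 3 lower. The 3 lower ones are known from the nervous system. *Gjb1*, connexin 32 of Schwann cells and oligodendrocytes, had 65.7 and 15.7 in the wild-type pair and 2.24 and 1.80 in the homozygous pair (log2 fold change −3.47, standard error 0.67, adjusted p = 0.0339). *Gjc3*, connexin 29 of myelin-forming cells, had 68.4 and 55.3 against 8.67 and 12.1 (log2 fold change −2.47, standard error 0.32, adjusted p = 0.0125), and *Gjd2*, connexin 36 of neurons, 11.5 and 9.02 against 1.42 and 0.193 (log2 fold change −2.72, standard error 0.55, adjusted p = 0.0363). The median of the 10 was −0.37, and it ran from −1.17 without the first homozygous library to −0.04 without the second. Of the 10, 1 passed only through the homozygous pair, and without it the median was −0.94.

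Hair cell genes differed among themselves. *Ocm*, oncomodulin, a calcium buffer of outer hair cells, had 0.344 and 20.1 in the wild-type pair and 158 and 304 in the homozygous pair (log2 fold change 5.37, standard error 1.09, adjusted p = 0.036). *Strc*, stereocilin, which links stereocilia to each other and to the tectorial membrane, had 0.0454 and 0.351 against 4.80 and 8.81 (log2 fold change 2.67, standard error 0.35, adjusted p = 0.0125). *Chrna10*, a subunit of the receptor for efferent nerve fibres, had 0.0372 and 1.22 against 5.51 and 12.2 (2.61, adjusted p = 0.0422). In all 3 and in *Slc26a5* the first wild-type library was the lowest of the 4. *Myo6*, a motor protein of inner and outer hair cells, had 36.5 and 40.5 against 34.3 and 46.4 (0.05, adjusted p = 0.921). *Otof*, the otoferlin of the inner hair cell synapse, had 9.39 and 25.1 against 14.1 and 19.2 (0.09, adjusted p = 0.917). *Tmc1*, a part of the transduction channel, had 0.519 and 4.13 against 3.59 and 6.51 (1.07, adjusted p = 0.226), and *Myo15*, which carries proteins to the tips of stereocilia, 0.116 and 1.20 against 3.89 and 8.33 (2.11, adjusted p = 0.057).

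Of 31 hair cell genes 26 passed the limit, and *Atoh1*, *Barhl1*, *Tmc2*, *Myo3a* and *Myo3b* did not, *Tmc2* being listed at 0 in all 4 libraries. *Slc26a5* was the 1 called member, 4 were higher and 0 lower under the looser rule, and 12 were higher and 2 lower without overlap. Of these, 3 passed the limit only through the homozygous pair, *Slc26a5* and *Strc* among them, so that the limit sets their direction. Without these 3, 9 of 23 were higher and 2 lower without overlap, beside 31.7% higher and 29.2% lower among all genes tested. The median without these 3 was 0.64. The median of the 26 was 0.71, and it ran from 0.21 without the first wild-type library to 1.10 without the second. The summed level was 101.1 and 215 in the wild-type pair and 325 and 566 in the homozygous pair, beside 415.5 to 816 in the apical libraries, 281 and 296 in the wild-type basal and 50.9 and 63.2 in the homozygous basal ones. Without the first wild-type library, *Ocm* changed by 3.38 in place of 5.37.

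Proteins of the acellular membranes over the hair cells were split. *Tecta* and *Tectb*, the tectorins of the tectorial membrane, were nearly absent from the wild-type middle libraries. *Tecta* had 0.141 and 0.129 in the wild-type pair and 6.76 and 11.8 in the homozygous pair (log2 fold change 3.14, standard error 0.52, adjusted p = 0.0241), and *Tectb* 0.460 and 0.169 against 29.6 and 49.7 (log2 fold change 4.92, standard error 0.89, adjusted p = 0.0314). *Otog*, otogelin, had 10.1 and 11.5 against 23.3 and 39.8 (1.42, adjusted p = 0.0489), and its relative *Otogl* 2.04 and 3.81 against 12.8 and 17.4 (2.06, adjusted p = 0.0197). *Ceacam16*, which binds the tectorins, went the other way with 1393 and 1168 against 281 and 442, though the test was not passed (log2 fold change −1.85, standard error 0.88, adjusted p = 0.212). All 6 genes of this list passed the limit, 4 passed the looser rule, all of these higher, and the median was 1.74. *Tecta* and *Tectb* were under 1 FPKM in both wild-type libraries and passed only through the homozygous pair, so the limit sets their direction. Without them 2 were higher and 2 lower without overlap, and the median was 0.54. In supporting cells, *Fgfr3*, a growth factor receptor of pillar and Deiters cells, had 5.11 and 6.85 against 16.6 and 25.2 (1.63, adjusted p = 0.0197), and *Jag1*, a Notch ligand, 1.78 and 4.42 against 8.18 and 12.5 (1.52, adjusted p = 0.0485). *Prox1*, a transcription factor of supporting cells and of some neurons, had 7.65 and 4.65 against 1.09 and 0.352 (−2.05, adjusted p = 0.0459). *Epyc*, a proteoglycan and the most abundant of this list, had 213 and 336 against 556 and 746 (1.26, adjusted p = 0.554). The supporting cell and Notch list had 14 of 15 members over the limit, without *Hes5*, 2 higher and 1 lower under the looser rule, and a median of 0.44.

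**Figure D4:**
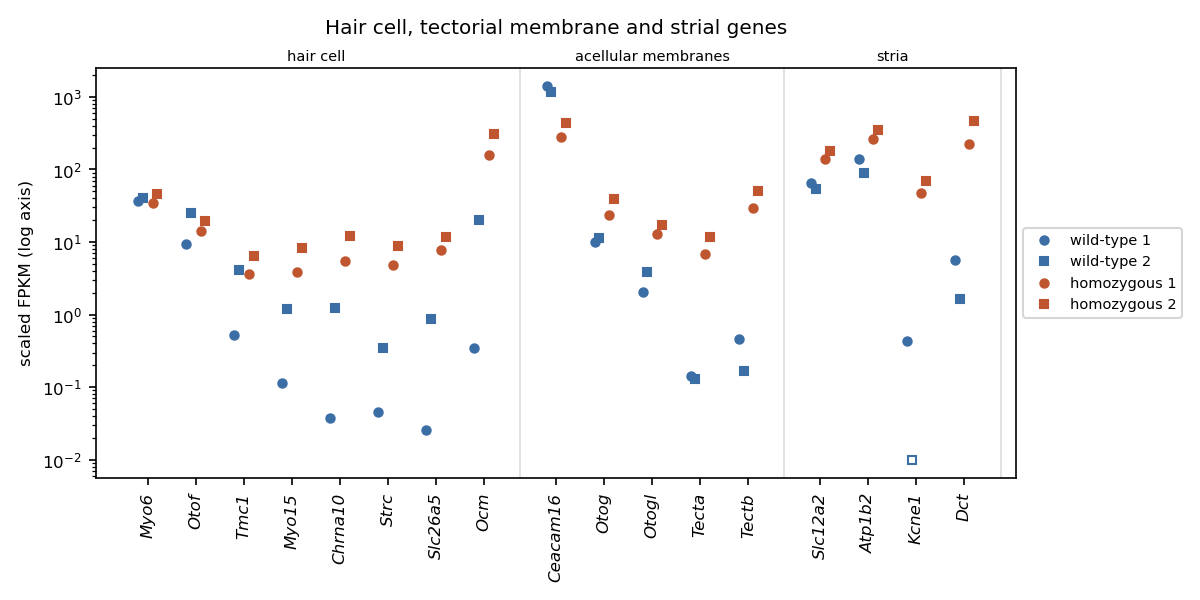
Scaled FPKM on a log axis of hair cell genes, genes of the acellular membranes and genes of the stria vascularis in the 4 middle libraries, blue for wild-type and orange for homozygous, circles for repeat 1 and squares for repeat 2. The open square is *Kcne1* in the second wild-type library, listed at 0 and drawn at 0.01, and the repeats of *Ocm* and *Slc26a5* in wild-type lie far apart.

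For the stria vascularis and the lateral wall no gene was called. *Kcne1*, a subunit of the potassium channel of marginal cells, had 0.430 and 0 against 46.9 and 68.7 (5.59, adjusted p = 0.11). *Atp1b2*, a sodium pump subunit, had 141 and 88.6 against 261 and 350.2 (1.43, adjusted p = 0.116), and *Slc12a2*, the cotransporter of sodium, potassium and chloride, 65.0 and 54.1 against 139.5 and 181 (1.41, adjusted p = 0.182). Of 9 marginal cell genes 8 passed the limit and 7 were higher without overlap, with a median of 2.58. *Kcne1* and 1 more passed only through the homozygous pair, and without these 2 the count was 5 of 6 and the median 2.05. *Dct*, a melanin enzyme of the pigmented intermediate cells, had 5.57 and 1.64 against 226 and 472 (6.30, adjusted p = 0.161), and *Kcnj10*, their potassium channel, 61.5 and 25.3 against 35.1 and 60.5 (0.22, adjusted p = 0.802). The intermediate cell and melanocyte list had 11 of 12 members over the limit, without *Tyrp1*, 8 of them higher without overlap, and a median of 0.79. Of these, 4 passed only through the homozygous pair, and without them 4 of 7 were higher without overlap, with a median of 0.69. For such genes the limit sets the direction. The standard errors were wide, at 1.94 for *Kcne1* and 2.60 for *Dct*.

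In the spiral ligament, *Coch*, the matrix protein cochlin, had 3836 and 5337 against 3427 and 5453 (−0.07, adjusted p = 0.959), and its sign turned under each other scaling, to 0.11 with the FPKM as deposited. *Otos*, otospiralin of fibrocytes, had 3225 and 2109 against 3499 and 5039 (0.69, adjusted p = 0.841), and *Car3*, a carbonic anhydrase, 144 and 229 against 762 and 985 (2.25, adjusted p = 0.214). All 8 genes of the basal cell and fibrocyte list passed the limit, and 5 were higher without overlap, beside 31.7% of all genes tested. The median was 0.55, or 0.90 without the first and 0.31 without the second wild-type library. Among the largest rises past the looser rule were genes outside all lists. *Emilin2*, a glycoprotein of the extracellular matrix, had 22.9 and 20.7 against 385 and 325 (log2 fold change 3.96, standard error 0.60, adjusted p = 0.0184), with close repeats. *Rarres1*, a retinoid-responsive gene, had 3.12 and 9.93 against 69.6 and 63.1 (3.33, adjusted p = 0.0463), *Ano1*, a calcium-activated chloride channel, 1.80 and 1.12 against 24.2 and 39.1 (3.70, adjusted p = 0.0244), and *Lctl*, a klotho relative, 0.324 and 0.191 against 8.23 and 15.8 (3.31, adjusted p = 0.0357). *Lctl* passed only through the homozygous pair.

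Cholesterol synthesis is a pathway that myelinating cells use heavily. All 22 of its listed genes passed the limit, 0 were called, 3 passed the looser rule, all lower, and 16 were lower without overlap. *Msmo1*, a sterol oxidase, had 71.3 and 57.8 against 21.2 and 19.9 (−1.60, adjusted p = 0.0349), *Fdft1*, squalene synthase, 27.02 and 25.5 against 10.8 and 10.9 (−1.20, adjusted p = 0.0302), and *Cyp51*, a demethylase of lanosterol, 35.8 and 15.4 against 5.46 and 5.23 (−1.95, adjusted p = 0.0455). *Hmgcs1*, at the start of the pathway, had 183 and 73.5 against 29.7 and 27.7 (−1.98, adjusted p = 0.0611). The median was −0.92, and it was −1.43 without the second and −0.41 without the first wild-type library, which was the highest of the 4 for *Hmgcs1* and *Cyp51*. Of 29 calcium signalling genes 23 passed the limit, and *P2rx3*, *P2ry4*, *Ryr1*, *Ryr2*, *Ryr3* and *Camk2a* did not. The median was −0.62, with 0 called and 2 lower under the looser rule. Without overlap 13 were lower and 3 higher, beside 29.2% lower and 31.7% higher among all genes tested. *Calm3*, a calmodulin gene, had 276 and 320 against 154 and 119 (−1.13, adjusted p = 0.0469), *Plcb1*, a phospholipase that makes inositol trisphosphate, 4.40 and 3.47 against 1.33 and 1.13 (−1.14, adjusted p = 0.0326), and *Pvalb*, a calcium buffer of neurons, 509 and 731 against 105 and 18.1 (−3.77, adjusted p = 0.0747).

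Lists for blood, marrow, bone and other tissue had no called member, and several rest on the first homozygous library. The neutrophil list had a median of 3.13, which was 0.95 without the first and 4.90 without the second homozygous library, and 8 of 11 members were higher without overlap. The B cell list, with 7 of 10 over the limit (not *Igll1*, *Vpreb1* and *Pax5*) and *Ighm* the most abundant, had 2.38, or 0.83 and 4.002 without these libraries in turn. For cell cycle genes, 5 of 12 over the limit, the values were 2.39, 0.69 and 4.02, and *Cdk1*, *Ccnb1*, *Aurkb*, *Kif11*, *Bub1*, *Tpx2* and *Cenpe* were over 1 FPKM in the first homozygous library alone. For osteoclast genes, 6 of 11 without *Dcstamp*, *Ocstamp*, *Calcr*, *Oscar* and *Atp6v0d2*, they were 1.34, 0.48 and 2.59. The MHC class II list, with 6 of 8 (*Ciita* was too low and *H2-Ea* not in the table) and led by *Cd74*, had 1.52, 0.30 and 2.52. All 5 cell cycle genes, 3 of the 7 B cell genes and 1 each of the osteoclast, erythroid and chondrocyte genes passed only through the homozygous pair. Without these members the median was 2.45 for B cell, 0.997 for osteoclast, 0.66 for erythroid and −0.23 for chondrocyte genes. *Mki67*, *Top2a* and *Acp5* were under 1 FPKM in both wild-type libraries and passed the limit through the homozygous pair, so for them the limit itself sets the sign that remains without the first homozygous library. The erythroid list, with 7 of 9 (not *Klf1* and *Epb42*), had 0.67, and between −0.47 and 1.96 with single middle libraries left out, and *Hbb-bs*, a globin chain, had 308 and 878 against 2016 and 342. All 15 osteoblast and osteocyte genes passed the limit, with a median of 0.93 that was 1.51 without the first, 0.22 without the second wild-type library and 0.56 without the first homozygous library, and *Col1a2*, a chain of collagen in bone, had 298 and 317 against 1023 and 247. The chondrocyte list, with 6 of 9 (not *Col10a1*, *Matn1* and *Matn3*), had −0.19, or between −0.46 and 0.17 with single libraries left out.

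For further lists the range of the median with each of the 4 middle libraries left out is given in brackets. The median was 0.08 for 13 of 13 macrophage genes (between −0.23 and 0.41). For 8 of 8 pericyte and smooth muscle genes it was 0.10 (between 0.02 and 0.19), and for 8 of 8 endothelial genes 0.38 (between 0.27 and 0.51). It was 0.48 (between 0.14 and 0.87) for 9 of 12 immediate early genes, *Arc*, *Fosb* and *Npas4* left out by the limit. Only 2 of 12 skeletal muscle genes passed the limit, with −0.93 (between −1.12 and −0.73). Of these, 1 passed only through the wild-type pair, so the limit sets its direction, and the other had 0.07. *Acta1* reached a scaled FPKM of 1.03 in the second wild-type library and was under 1 in the others. *Myh1*, *Myh2*, *Myh4*, *Ckm*, *Atp2a1*, *Tnnt3*, *Tnni2*, *Tnnc2* and *Actn3* were under 1 in all 4 libraries. The interferon list had 14 of 14 members and a median of 0.32 (between −0.26 and 1.13). The apoptosis and p53 list had 15 of 16 members over the limit (not *Pmaip1*), a median of 0.24 (between 0.14 and 0.26), and 1 member past the looser rule. This was *Casp8*, an initiator caspase, with 3.003 and 4.32 against 10.2 and 7.95 (1.12, adjusted p = 0.0357). *Trp53*, the p53 gene, had 11.6 and 10.4 against 23.1 and 20.5 (0.93, adjusted p = 0.0197), just short of a log2 fold change of 1.

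The stem cells from which the line was first made carried deletions at imprinted regions that were later removed by backcrossing, so imprinted genes were looked at. Of 7 such genes 5 passed the limit, without *Dlk1* and *Rtl1*, 0 were called, and the median was −0.52, or between −0.70 and −0.34 with single libraries left out. *Rian* had 77.4 and 125 against 38.1 and 7.97 (−2.41, adjusted p = 0.0923), *Meg3*, another noncoding RNA of that region, 48.4 and 97.5 against 29.9 and 14.1 (−1.69, adjusted p = 0.158), and *Igf2*, a growth factor, 65.3 and 27.2 against 89.6 and 31.8 (0.33, adjusted p = 0.831). All 13 genes of the mitochondrial genome were lower without overlap and none was called, with a median of −1.12. This median was −0.95 with the FPKM as deposited, −1.004 with equal sums and −0.69 with quantile normalization. *mt-Co1*, a subunit of cytochrome oxidase, had 14690 and 21910 against 10080 and 6728 (−1.12, adjusted p = 0.443).

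**Figure D5:**
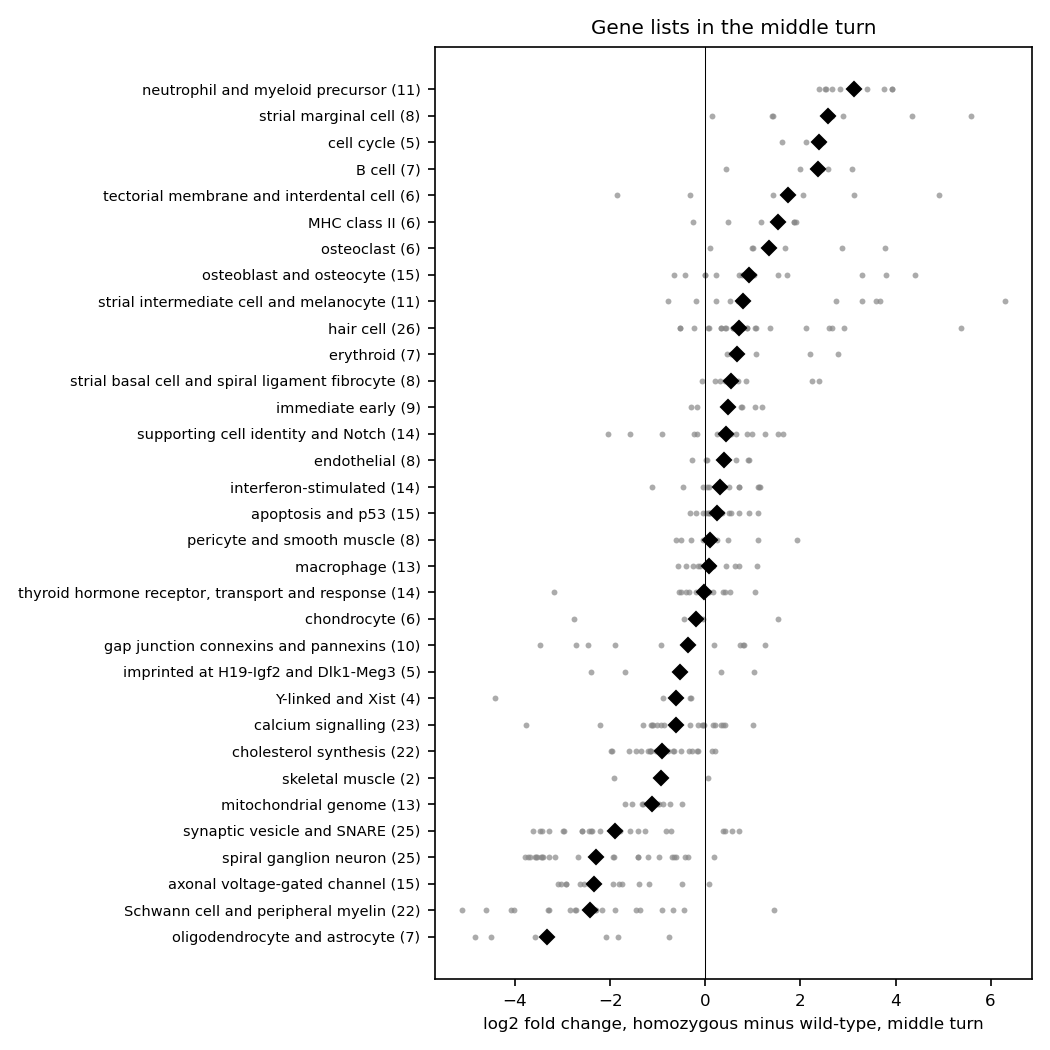
Log2 fold change of homozygous minus wild-type in the middle turn for the members of 33 gene lists that passed the FPKM limit (grey points, their number in brackets) and the median of each list (black diamonds). Lists of nerve and glia lie lowest, and the neutrophil, marginal cell, cell cycle and B cell lists highest, 3 of which rest largely on the first homozygous library.

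Whether the effect of the genotype differed between turns was tested for each gene. Against the apical turn, limma called a difference for 0 genes (0%), with 1152 at an unadjusted p under 0.05. Against the basal turn it called 1479 (10.2%), 447 with a more positive and 1032 with a more negative effect in the middle turn. Of the 29 genes called in the middle turn, 17 are among these, 28 had the same sign in the apical turn, and 15 the opposite sign in the basal turn. The difference contains the middle-turn change by which the 29 were called, so the 17 are favoured by that choice and are no separate support. *Pllp* differed in this way, with −2.85 here and 1.14 in the basal turn (difference −3.996, adjusted p = 0.0014). *Prx* had −2.32 and 2.38 (difference −4.70, adjusted p = 0.00102), and *Slc26a5* 2.93 and −0.94 (difference 3.87, adjusted p = 0.00226). The medians of whole lists were opposite too, −2.29 against 3.09 in the basal turn for spiral ganglion neurons, −2.43 and 2.21 for Schwann cells, and 0.71 and −1.24 for hair cells. These counts rest on all 12 libraries. With only the 8 middle and basal libraries in the fit, limma called 0 differences and 4772 had an unadjusted p under 0.05, and without the first wild-type middle library 320 were called.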

How the data were processed

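The authors trimmed reads with fastp 0.20.0, aligned them to mm10 with STAR 2.7.3a and calculated the deposited FPKM with StringTie 2.0. Their own test of read counts with DESeq2 1.30.0 was not used here, and no sample column was left out. Libraries were divided by median-of-ratios factors over 11552 genes with at least 1 FPKM in all 12 libraries. The factors were 0.934 and 0.920 for the wild-type and 1.03 and 1.06 for the homozygous middle libraries. limma 3.58.1 in R 4.3.3 fitted log2(scaled FPKM + 1) by the 6 groups of genotype and turn, and eBayes used a trend (6 residual degrees of freedom, 2.75 prior ones). Tests were two-sided, with Benjamini-Hochberg adjustment over the 14478 genes. The code was tested on simulated data. Depth is unknown, so precision rests on the spread between repeats. Of the gene identifiers, 36831 (98.39%) are in the GENCODE M21 annotation of GRCm38, which gave coordinates, gene types and transcripts.

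Genes named are *Gjb2* and *Gjb6*, all called genes, and the 10 largest rises and falls past an adjusted p of 0.05 with a fold over 2, at least 5 scaled FPKM and no overlap. Also named are, for each of the 33 lists, the 3 members of highest mean and any member called or past 0.05, and genes the study names. Members and lists were chosen with earlier results of these data known. Some genes the lists hold are not reported here. Not every gene covered is reported, and those reported were picked after values were seen. The search for near copies among transcripts (blastn 2.17.0, at least 90% identity over at least 50% of a transcript), their parent genes, the promoter letters (Biopython 1.88) and 3 alternative fits were also chosen after values were seen. Lists were described without a set test. Alternatives varied the pseudocount, filter, scaling, libraries, weights, trend, block and thresholds. Python 3.11.15 with matplotlib 3.10.9 drew the figures.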

Additional observations from a re-analysis of the deposited data

Results flagged for a closer look

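With all 12 libraries in the fit, limma called a different effect of the genotype in the middle and basal turns for 1479 genes. The difference itself was tested (adjusted p under 0.01 and a difference over 1 on the log2 scale). With only the 8 middle and basal libraries in the fit 0 were called, so the calls depend on having the apical libraries in the fit. Many genes below were named for their middle-turn change, which is part of the difference. The differences here are middle minus basal turn, for genes described above. Connexin genes had 2.08 for *Gjb6*, −4.49 for *Gjc3*, −5.43 for *Gjb1* and −5.22 for *Gjd2*. Of the genes that rose in the middle turn, the differences were 2.44 for *Serpinf1*, 2.39 for *Npy* and 3.87 for *Slc26a5*. Genes that fell there had −3.30 for *Gpr155*, −3.70 for *Pou3f1*, −1.16 for *Ppm1a*, −3.33 for *Galnt16*, −4.00 for *Pllp*, −4.17 for *Fam178b*, −2.64 for *Itgb8* and −4.70 for *Prx*. The same test gave −2.02 for *Spag9*, −3.21 for *Crabp1*, −3.72 for *Sorcs1*, −3.69 for *Jakmip2*, −3.29 for *Ctnna3* and −3.46 for *Ndrg1*. Further genes of the Schwann cell had −4.09 for *Pmp22*, −5.09 for *Cnp*, −3.29 for *Egr2* and −4.84 for *Cldn19*. In the spiral ganglion neuron, synaptic vesicle and axonal channel lists it was −7.39 for *Calb2*, −5.65 for *Vamp1*, −5.48 for *Kcna1* and −5.34 for *Kcna2*. Large falls outside all lists had −7.15 for *Lhfpl3*, −5.98 for *Rab6b*, −6.20 for *Serpini1*, −7.82 for *Spock3* and −6.36 for *Syt11*. Hair cell genes had positive differences, 9.13 for *Ocm*, 3.68 for *Strc*, 4.85 for *Chrna10*, 4.69 for *Otof* and 3.97 for *Myo15*. Around the hair cells it was 2.92 for *Fgfr3*, 2.93 for *Jag1*, −4.36 for *Prox1*, 3.77 for *Tecta*, 6.59 for *Tectb*, 4.33 for *Otogl* and 5.64 for *Otog*. Genes of cholesterol synthesis and calcium signalling had −2.23 for *Msmo1*, −1.88 for *Fdft1*, −3.96 for *Hmgcs1*, −2.58 for *Calm3* and −2.43 for *Plcb1*. The remaining genes had 2.28 for *Slc16a10*, −4.91 for *Meg3*, −6.19 for *Rian*, 2.14 for *Casp8*, 6.68 for *Emilin2* and 7.40 for *Rarres1*.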

How the results depend on the processing

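In place of the 29 genes called in the middle turn, limma called 19 with a pseudocount of 0.1, 16 with 0.01, 15 without a filter on low values and 18 with at least 5 FPKM. Quantile normalization gave 57 and library weights 71. With all 12 libraries 553 genes passed the looser rule, an adjusted p under 0.05 together with a log2 fold change beyond 1. With only the 4 middle libraries in the fit 0 were called. The replicate block, which takes the repeat number as a factor, left 13, which are *Thrb*, *Tpm3-rs7*, *Atp6v0c-ps2*, *Eno1b*, *Gm10260*, *Gm4735*, *Gm14038*, *Gpr155*, *Pou3f1*, *Ppm1a*, *Galnt16*, *Fam178b* and *Itgb8*. A replicate block within each genotype, chosen after seeing the data, gave 6 calls. The labels share only a number, and whether libraries of 1 number come from the same animals is not given. Over 14478 genes, deviations from the group means had r = −0.0096 between the middle libraries of the same number in the 2 genotypes. Between turns of a genotype they had −0.0175 for middle with apical and −0.28 for middle with basal in wild-type, and −0.417 and −0.259 in homozygotes. For apical with basal they had 0.0804 and 0.278. Crossed numbers have the opposite sign. The FPKM as deposited gave 23 calls, of which 60.87% were higher, and equal sums 20, of which 55% were higher, against 44.83% of the 29. Of the 57 calls with quantile normalization 33.33% were higher, and of the 71 with library weights 35.21%. With 1 library left out the count ran from 5 (without the first homozygous middle library) to 65 (without the first wild-type basal one). In these fits a lone library is assumed to vary like the other groups. Chosen after seeing the data, the fits with the 8 middle and apical libraries and with the 8 middle and basal libraries called 190 and 6 genes.

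For the difference from the apical turn, 0 genes became 1 with the 8 middle and apical libraries (chosen after seeing the data) and 0 to 1 with single libraries left out. For the difference from the basal turn, 1479 became 296 without a filter, 3088 at an adjusted p under 0.05, 1078 with the replicate block, 748 with the one within each genotype and 0 with the 8 middle and basal libraries, and 320 to 2283 with single libraries left out. The fit with only the 4 middle libraries has no value for differences between turns.

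Some log2 fold changes turned sign. *Coch* went from −0.07 to 0.106 with the FPKM as deposited, 0.053 with equal sums and 0.17 with quantile normalization. With single libraries left out, *Coch* lay between −0.40 and 0.27, *Gfap* between −7.15 and 0.51, *Myo6* between −0.16 and 0.26, *Otof* between −0.58 and 0.75, *Kcnj10* between −0.41 and 0.84, *Thra* between −0.24 and 0.34, *Col1a2* between −0.32 and 1.73, *Hbb-bs* between −0.60 and 1.95 and *Igf2* between −0.40 and 1.07. Over the genes described and all settings, 2351 values kept direction and side of the threshold, 295 were no longer past it, 28 came to pass it and 19 turned sign. For the lists, 729 medians moved by less than the spread between repeats and 28 by more. The cause was not tested.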
